A study of Mus musculus with 4 samples.

Results

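The non-clustered protocadherins Pcdh1, Pcdh7, Pcdh8, Pcdh9, Pcdh10, Pcdh11x, Pcdh17, Pcdh18, Pcdh19 and Pcdh20 were followed in mouse embryonic stem cells (ESCs) before and after differentiation with retinoic acid (RA). They are 10 of the 24421 genes in the count data, and each had a count in at least 1 library. They were found by gene symbol, and the family was chosen by its measured counts, having been seen to rise from Undiff to Day4 in these same libraries. The differences between the states in its members are therefore given below as a description, without a test.

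All 4 libraries were Illumina TruSeq libraries of R1, an established mouse ESC line, with 2 replicates of each state. Undiff is described in the methods as cells kept with leukaemia inhibitory factor (LIF), and in the sample labels as embryoid bodies, the aggregates that ESCs form when they start to differentiate. Day4 is embryoid bodies grown without LIF and then exposed to RA for 4 days, at 2 µM by the text of the study and at 2 mM by the labels. The time in culture, LIF withdrawal and RA separate the states together, as does aggregation if Undiff is taken as the methods describe it. Their effects cannot be told apart here, and R1 is 1 line. The libraries held 32099074 to 47730944 counts on genes, and the biological coefficient of variation across genes was 3.66%. A fixed list of 10 pluripotency genes was lower in Day4 throughout, and its summed normalized count went from 185600-187300 in Undiff to 857-1077 in Day4. Markers were counted as higher or lower by the thresholds for a differentially expressed gene given below. By these, 22.2% of all 19891 tested genes were higher in Day4 and 20.6% lower. Of the neural markers 3 of 10 were higher and 6 lower, and of the mesoderm markers 6 of 11 higher and 2 lower. Of the endoderm markers 7 of 10 were higher and 2 lower, and of the endothelial markers 4 of 6 higher and 2 lower. The fibroblast markers were higher for 6 of 7 and lower for 1, with a summed normalized count of 2241-2412 in Undiff and 56940-62500 in Day4. The part of these cell types in the results on the protocadherins was not tested, and in bulk RNA more cells of a type and more RNA per cell cannot be told apart.

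Protocadherins are single-pass membrane proteins with a row of extracellular cadherin repeats, and they make weak, selective contacts between cells that carry the same member. Unlike the clustered protocadherins, which lie in large arrays and share constant exons, the non-clustered genes are scattered through the genome, each with a promoter of its own. They are best known from the developing nervous system, where they take part in sorting neurons, guiding axons and building synapses, and several also act in the early embryo when mesoderm separates and moves. Pcdh1, Pcdh7, Pcdh9 and Pcdh11x form the delta-1 group, whose cytoplasmic tails carry a motif that binds protein phosphatase 1. Pcdh8, Pcdh10, Pcdh17, Pcdh18 and Pcdh19 form the delta-2 group, some of which bind the WAVE complex, a regulator of branched actin.

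The promoters are shown because each of these genes starts from its own, and because what they have in common was not used to choose the family. RefSeq windows on GRCm38.p6 were found for 8 members, with 2 windows for Pcdh9, among 32851 windows for all genes. Each window holds 250 bases before the start of transcription and 50 after it. The last 120 bases before the start are printed 5′ to 3′ on the strand of the gene for all of these members but Pcdh7 and Pcdh9. Capitals mark CCAAT or its complement ATTGG, and a TATAAA within the last 50 bases. Pcdh7 had neither CCAAT nor ATTGG in its window, and Pcdh9 had CCAAT. The printed stretches are therefore richer in ATTGG than the family. The stretches lie at chr3:49757317-49757436 on the minus strand for Pcdh18, chr14:84443443-84443562 on the plus strand for Pcdh17, chrX:133688994-133689113 on the minus strand for Pcdh19, chr3:45378278-45378397 on the plus strand for Pcdh10, chr14:79771313-79771432 on the minus strand for Pcdh8 and chr14:88471397-88471516 on the minus strand for Pcdh20.
Pcdh18: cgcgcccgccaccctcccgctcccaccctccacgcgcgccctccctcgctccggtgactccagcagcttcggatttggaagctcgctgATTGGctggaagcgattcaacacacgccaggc
Pcdh17: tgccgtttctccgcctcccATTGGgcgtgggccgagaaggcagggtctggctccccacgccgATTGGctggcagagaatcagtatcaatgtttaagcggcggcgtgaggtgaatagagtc
Pcdh19: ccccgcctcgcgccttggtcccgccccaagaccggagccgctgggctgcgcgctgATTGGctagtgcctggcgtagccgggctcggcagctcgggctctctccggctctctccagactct
Pcdh10: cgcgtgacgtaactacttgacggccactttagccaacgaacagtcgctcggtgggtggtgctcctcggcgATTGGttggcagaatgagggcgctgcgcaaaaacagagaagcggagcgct
Pcdh8: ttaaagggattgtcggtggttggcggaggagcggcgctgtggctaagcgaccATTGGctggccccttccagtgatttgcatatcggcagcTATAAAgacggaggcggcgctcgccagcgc
Pcdh20: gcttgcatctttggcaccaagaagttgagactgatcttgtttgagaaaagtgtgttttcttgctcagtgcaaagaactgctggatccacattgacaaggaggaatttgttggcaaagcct

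The CCAAT box, the short motif bound by NF-Y, stood in the complement orientation within the last 120 bases for 5 of the 8 members. That was 55.6% of the windows of the family, against 11.9% of all windows. The 120 bases were set after the sequences were seen, and no orientation was planned beforehand. The box began 32 bases before the start in Pcdh18, 50 in Pcdh10, 58 in Pcdh17, 65 in Pcdh19 and 68 in Pcdh8. Pcdh9 held it as CCAAT, 82 bases before the start in one of its windows, whereas Pcdh7 had no match. In Pcdh20 the nearest match lay 185 bases before the start. Counted on either strand within the last 120 bases, a length set after the sequences were seen, the motif was present for 6 of the 8 members. That was 77.8% of the windows of the family, against 21.3% of all windows. Over the full windows the motif was present for 7 of 8 members, in 88.9% of the windows of the family and 37.4% of all windows. Pcdh8 held a TATAAA 30 bases before its start, which 2.63% of all windows held within the last 50 bases. The windows of the family had a median GC content of 62.3% and a median of 18 CG dinucleotides, beside 52.7% and 7 over all windows, and ranged from 4 CG dinucleotides in Pcdh20 to 26 in Pcdh17. The hexamer AGGTCA, the half-site that retinoic acid receptors bind, was searched on both strands. Its variant GGGTCA was included, as were the variants AGTTCA and, with both bases changed, GGTTCA. At least 1 of them was found for 4 of 8 members, in 55.6% of the windows of the family and 43.7% of all windows. A pair of them in the same orientation, 5 or 2 bases apart, occurred in 0 of the 9 windows of the family and in 0.0974% and 0.268% of all windows. The box GGGCGG, bound by Sp proteins, was found on either strand for 4 of 8 members, in 44.4% of the windows of the family and 35.7% of all windows. These are matches of letters, and binding was not measured. No comparison was made with windows of like CG content.

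In normalized counts, 9 of the 10 members had both Day4 libraries above both Undiff libraries, and the exception was Pcdh1. Over all 19891 genes with a count, 42.7% had both Day4 libraries above both Undiff libraries. The log2 fold changes of the members ran from −0.16 for Pcdh1 to 6.85 for Pcdh10 with a median of 4.37, while the median over all tested genes was −0.03. Since the family was picked for this rise, nothing is read from these counts. The make-up of the family rests on the same counts and is likewise a description. Levels were compared between genes as RPKM, counts scaled for library depth and for the kilobases of annotated exon. Pcdh1 made up 78.2% ± 1.19 (SD, n = 2) of the summed level of the 10 members in Undiff and 7.64% ± 0.0457 (SD, n = 2) in Day4. Pcdh18 made up 10.8% of it in Undiff and 73.2% ± 0.432 (SD, n = 2) in Day4.

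**Figure D1:**
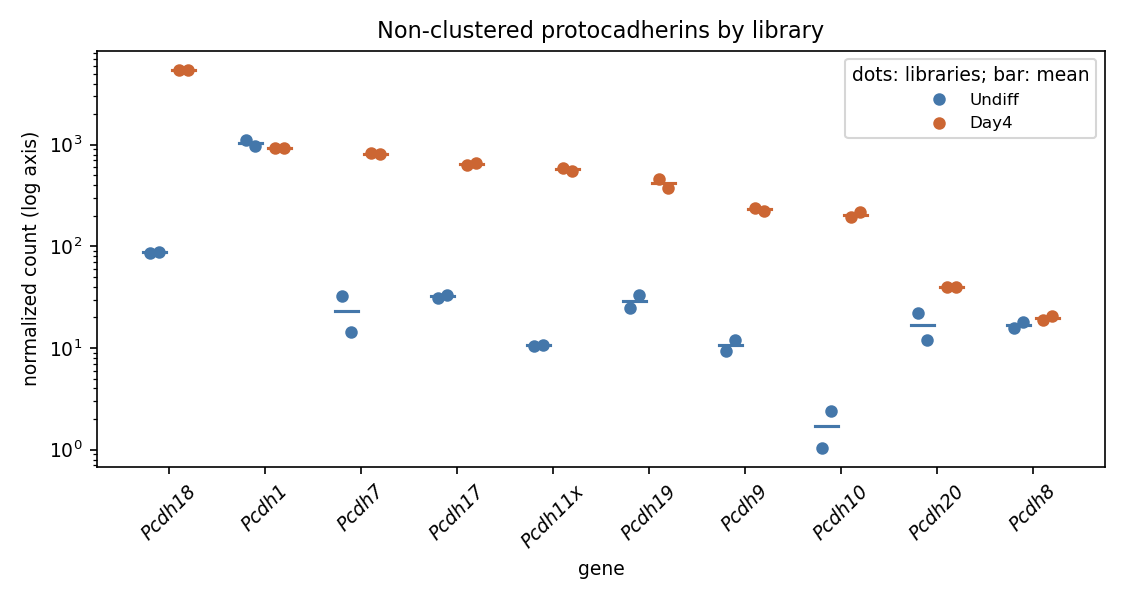
Normalized counts of the 10 members in each library, on a log axis, in the order of their Day4 level per length. Dots are libraries and bars are the means of 2 libraries; Pcdh1 and Pcdh8 lie at nearly the same height in both states, and the other 9 members lie below Pcdh1 in Undiff.

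Pcdh18, a delta-2 member whose cytoplasmic tail binds the adaptor Dab1, lies at chr3:49743296-49757325 on the minus strand. Its normalized counts were 86.5 and 88.5 in Undiff and 5471 and 5474 in Day4, a 62.5-fold difference with a log2 fold change of 5.97 (SE 0.08). The libraries of a state differed far less than the states did. Its level per length went from 0.436 to 27.2 RPKM, which placed it in Day4 at the 89.8th percentile of 19078 genes with a count and a length. The summed level of the 10 members was 4.27 and 3.82 RPKM in Undiff and 37.3 and 37.1 RPKM in Day4, a 9.19-fold difference, and most of the increase was in Pcdh18. Without Pcdh1 and Pcdh18, the mean sum of the other 8 was 0.446 RPKM in Undiff and 7.12 RPKM in Day4.

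Pcdh1, a delta-1 member found in epithelia and able to bind Smad3, lies at chr18:38185914-38212053 on the minus strand. Its normalized counts were 1112 and 974.0 in Undiff and 936.0 and 936.7 in Day4, and the log2 fold change was −0.16 (SE 0.07). Both Day4 values lay below both Undiff values, but the means differed by about the SD of the Undiff pair, 97.5 counts. At 3.17 ± 0.296 RPKM (SD, n = 2) in Undiff and 2.84 ± 0.00152 RPKM (SD, n = 2) in Day4, it stayed near the middle of all genes, at the 56.6th and 52.3rd percentiles. It was the first of the 10 members in Undiff and the second in Day4.

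**Figure D2:**
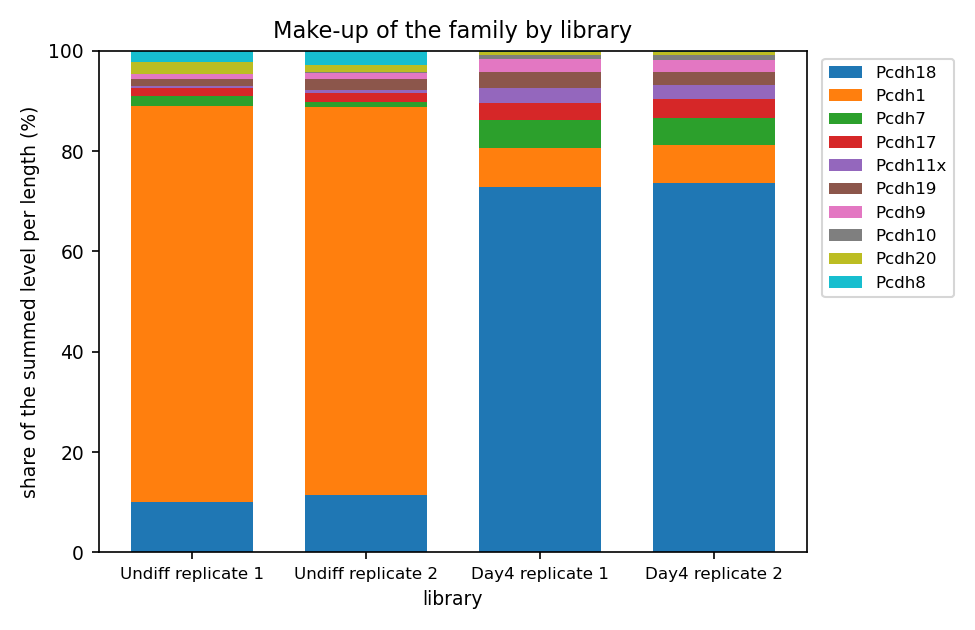
Share of each member in the summed level per length of the 10 members, in percent, with 1 bar for each library. Pcdh1 fills most of both Undiff bars and Pcdh18 most of both Day4 bars, and the bars of a state look alike.

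Among the other delta-1 members, Pcdh7, which binds the phosphatase inhibitor Set, had 32.3 and 14.4 normalized counts in Undiff against 829.4 and 802.3 in Day4. In proportion its Undiff pair differed more than that of any other member except Pcdh10, and the log2 fold change of 5.08 (SE 0.17) became 4.65 without Undiff replicate 2 and 5.81 without Undiff replicate 1. The gene, at chr5:57717967-58133230 on the plus strand, shares 2235 exon bases with the antisense RNA 4932441J04Rik. That RNA had 0 and 0 counts in Undiff and 12 and 11 in Day4. For counting on genes, the methods name only the Direct RNA samples as strand-specific, and for TruSeq they counted exons without regard to strand. Fragments from the shared bases may therefore not be told apart by strand, here and in the other members with such an overlap. Pcdh11x, an X-linked gene at chrX:120290259-120910619 on the plus strand, had 10.4 and 10.8 normalized counts in Undiff against 592.3 and 553.6 in Day4. This 54.1-fold difference, with a log2 fold change of 5.74 (SE 0.18), was close in size to that of Pcdh18, but from a level of 0.0203 RPKM to 1.10 RPKM. Pcdh9, a very long gene at chr14:93013410-93890679 on the minus strand, had 9.38 and 11.97 normalized counts in Undiff against 239.2 and 223.4 in Day4. Its log2 fold change was 4.43 (SE 0.22), and its Day4 level of 0.911 RPKM was the lowest of the delta-1 group.

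Of the other delta-2 members, Pcdh17, known from synapses of the corticobasal ganglia, had 31.3 and 33.5 normalized counts in Undiff against 630.9 and 661.8 in Day4. The log2 fold change of 4.32 (SE 0.14) corresponded to a 19.96-fold difference, and the gene lies at chr14:84443563-84539002 on the plus strand. Pcdh19, the X-linked gene mutated in a form of epilepsy that affects mainly females, had 25.01 and 33.5 normalized counts in Undiff against 460.7 and 377.0 in Day4. The log2 fold change was 3.83 (SE 0.19), at chrX:133582860-133688987 on the minus strand with 57 exon bases shared with Gm26851 on the opposite strand, and in proportion its Day4 pair differed more than that of any other member. Pcdh10, which recruits the WAVE complex through Nckap1 and is needed for the growth of striatal axons, was at or below the floor of 3 counts in Undiff. Its raw counts were 1 and 2 in Undiff and 186 and 281 in Day4, so that no Undiff level can be placed with any precision. The ratio of pooled, depth-scaled counts was 123.7, with an exact 95% interval of 42.1 to 601.9 that covers counting error only. Pcdh10 lies at chr3:45378398-45435623 on the plus strand and shares 154 exon bases with the antisense RNA 1700027H10Rik, which had 0 counts in every library. The fitted log2 fold change of 6.85 depends on how the low counts are handled, and was 6.36 without Undiff replicate 1 and 7.48 without Undiff replicate 2.

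Pcdh8 and Pcdh20 stayed low in both states. Pcdh8, also known as paraxial protocadherin for its place in the mesoderm that forms somites, had 15.6 and 17.9 normalized counts in Undiff against 18.8 and 20.7 in Day4. Both Day4 values lay above both Undiff values, although not after the libraries were thinned to equal depth, and the ratio of pooled counts was 1.19 with an exact 95% counting interval of 0.735 to 1.96, which includes no difference. The gene lies at chr14:79766775-79771312 on the minus strand and shares 436 exon bases with the antisense RNA Gm9748, for which no count was analysed here. Pcdh20, at chr14:88464743-88471396 on the minus strand, had 21.9 and 11.97 normalized counts in Undiff against 39.7 and 39.9 in Day4. The log2 fold change of 1.20 (SE 0.33) was 0.86 without Undiff replicate 2 and 1.73 without Undiff replicate 1. The pooled ratio was 2.31 with an exact 95% counting interval of 1.52 to 3.59.

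By level per length, the Undiff order was Pcdh1, Pcdh18, Pcdh8, Pcdh20, Pcdh19, Pcdh17, Pcdh7, Pcdh9, Pcdh11x and Pcdh10. From Pcdh8 to Pcdh9 the libraries of each pair of neighbours overlapped, so adjacent places among those 6 genes are not resolved. Some genes further apart did not overlap. Both libraries of Pcdh8 lay above those of Pcdh19, Pcdh17, Pcdh7 and Pcdh9, and both libraries of Pcdh17 and Pcdh19 lay above those of Pcdh9. These places rest on few counts, such as 15 and 15 for Pcdh8 and 9 and 10 for Pcdh9, and their counting error was not assessed. In Day4 the order was Pcdh18, Pcdh1, Pcdh7, Pcdh17, Pcdh11x, Pcdh19, Pcdh9, Pcdh10, Pcdh20 and Pcdh8, and the one pair of neighbours to overlap was Pcdh11x and Pcdh19. Pcdh8 and Pcdh20 lay below the other 8 members in both Day4 libraries. With the longest annotated transcript as the length instead of all exons, Pcdh17 and Pcdh11x exchanged places in Day4.

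Genes with a pattern most like that of a member were found by distance over log2(normalized CPM + 0.5) in the 4 libraries. Nearest to Pcdh18 was Dchs1, a giant cadherin that pairs with Fat4, at a distance of 0.259, with 87.5 and 79.0 normalized counts in Undiff against 4943 and 4878 in Day4. Zbtb7c was next at 0.291. Nearest to Pcdh1 were Synj1 at 0.106 and Slc30a1 at 0.108, and nearest to Pcdh7 were Rgma at 0.300 and Rnf182 at 0.345. With 4 libraries in 2 states, any gene of like level and like difference is near, and the distance says no more than that.

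The other protocadherins and the proteins that work with them were taken as fixed lists and tested with edgeR's quasi-likelihood test over all 19891 genes. The lists were chosen with earlier results of these data known. To count as a differentially expressed gene (DEG), a gene needed a Benjamini-Hochberg adjusted p-value up to 0.05, a log2 fold change of 1 or more in either direction, and 5 or more normalized counts on average. By these thresholds 22.2% of all tested genes were higher and 20.6% lower in Day4. Of the other unclustered and large cadherins, 18 of 20 listed genes were analysed, of which 6 were higher, 6 lower and 6 no DEGs, with a median log2 fold change of 0.15. One of the 6 is Pcdh12, an endothelial and trophoblast protocadherin of the family that was picked for its rise, with 14 and 6 raw counts in Undiff and 408 and 577 in Day4. Pcdh15, a part of the tip links of hair cells, had 0 and 0 raw counts in Undiff and 3 and 2 in Day4, which is at the floor in both states.

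Fat4 and its ligand Dchs1, which set planar polarity and restrain growth, were far higher in Day4. Fat4 had 10 and 5 raw counts in Undiff and 2717 and 3851 in Day4, and its log2 fold change was 8.42 (SE 0.13, adjusted p = 6.3e-15 by edgeR's quasi-likelihood test). Dchs1 differed by 5.87 (SE 0.08, adjusted p = 1.6e-15 by the same test). Fat2 fell (adjusted p = 2.3e-09 by the same test) from 173 and 116 raw counts in Undiff to 2 and 3 in Day4, which is at the floor, and the ratio of its pooled counts, Day4 over Undiff, was 0.0138 with an exact 95% counting interval of 0.00443 to 0.0325. The photoreceptor cadherin Cdhr1 fell by 4.25 (SE 0.20, adjusted p = 3.0e-10). Relatives of the protocadherins in this list moved in both directions.

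Classical cadherins, unlike protocadherins, anchor strong junctions. Of the 22 cadherins listed as classical and type II, not all of which are of these types, 11 were higher, 3 lower and 8 no DEGs. Their median log2 fold change was 1.70. E-cadherin, Cdh1, the adhesion molecule of ESC colonies, fell by 5.60 (SE 0.10, adjusted p = 2.0e-14 by edgeR's quasi-likelihood test), from a mean of 44650 ± 513 to 909.6 ± 211 normalized counts (SD, n = 2). N-cadherin, Cdh2, whose uptake from the membrane is promoted by Pcdh8, rose by 3.65 (SE 0.06, adjusted p = 6.2e-15 by the same test), from 575.9 ± 11.3 to 7209 ± 236 normalized counts (SD, n = 2). Cdh8 rose by 7.92 (SE 0.18) from 9 and 2 raw counts to 1396 and 2034, and the mesenchymal cadherin Cdh11 rose by 7.62 (SE 0.07), whereas Cdh9 fell by 2.44 (SE 0.35).

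Of the 8 catenins, the cytoplasmic linkers that classical cadherins use and protocadherins lack, 3 were higher, 1 lower and 4 no DEGs, with a median log2 fold change of 0.54. Ctnnb1, beta-catenin, rose by 1.32 (SE 0.03), Ctnna2 by 1.86 (SE 0.24) and Ctnnd2 by 1.68 (SE 0.19), and Pkp4 fell by 1.19 (SE 0.06). Of 11 genes of the WAVE complex 2 were higher, 2 lower and 7 no DEGs, with a median of 0.35. Abi1 rose by 1.77 (SE 0.05) and Wasf1 by 1.17 (SE 0.06), while Nckap1l, the blood-cell form of Nckap1, fell by 2.56 (SE 0.16) and Wasf3 by 1.20 (SE 0.07). Nckap1, the subunit that Pcdh10 binds, stood at 9260 ± 5.55 in Undiff and at 9872 ± 318 in Day4 in normalized counts (SD, n = 2), with a log2 fold change of 0.09 (SE 0.04, adjusted p = 0.057 by edgeR's quasi-likelihood test).

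The list of other cytoplasmic partners had 1 of 8 genes higher, 2 lower and 5 no DEGs, with a median log2 fold change of 0.12. Smad3, the partner of Pcdh1, rose by 3.28 (SE 0.06, adjusted p = 2.6e-14 by edgeR's quasi-likelihood test). Set, the partner of Pcdh7, fell by 1.34 (SE 0.04), and Dab1, the partner of Pcdh18, fell by 1.11 (SE 0.12). Without Undiff replicate 2 or without Day4 replicate 1, Dab1 was no DEG, which left 1 lower gene. The protein phosphatase 1 subunit Ppp1ca differed by 0.38 (SE 0.04), and Taok2 and Mapk14, the kinases that act below Pcdh8, by 0.42 (SE 0.05) and −0.14 (SE 0.05). The adjusted p-values of these 3 were 9.5e-07, 1.6e-06 and 0.016 by the same test, and the differences were below the minimum fold change for a DEG.

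**Figure D3:**
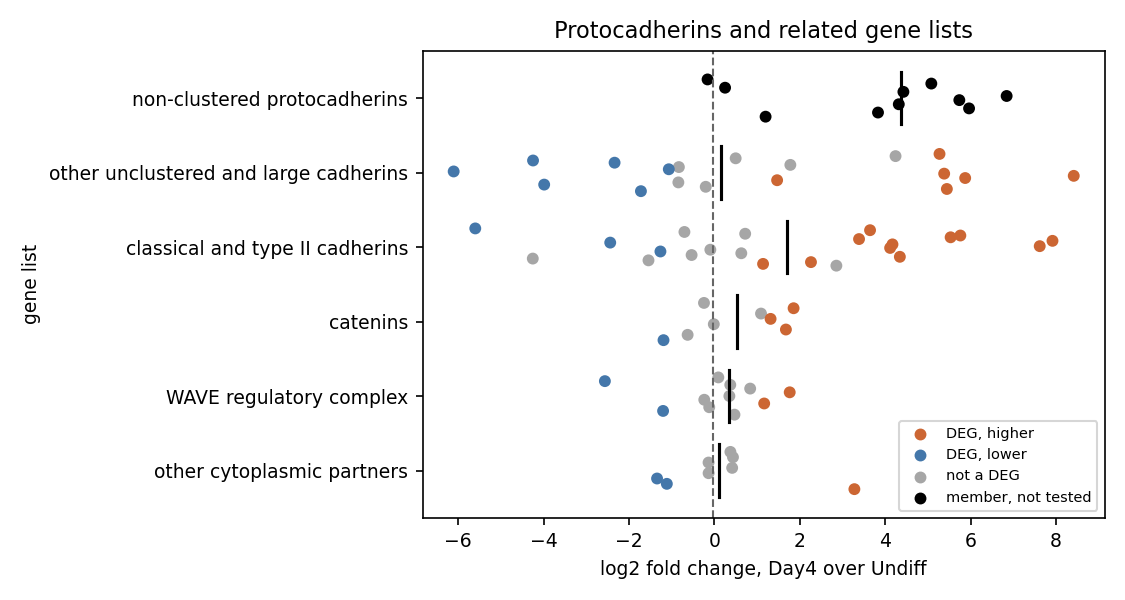
Log2 fold change, Day4 over Undiff, of the members and of the genes of 5 related lists. Each dot is a gene, the black bars are list medians and the dashed line is the median of all tested genes; the median of the members is 4.37, and that of the classical and type II cadherins is 1.70. The dot of Pcdh10 rests on 1 and 2 counts in Undiff.

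Of the 10 members, 4 lie on chromosome 14 and 2 on the X chromosome, by the GENCODE vM21 annotation of GRCm38. Pcdh8, Pcdh17, Pcdh20 and Pcdh9 stand in this order within 14.1 Mb of chromosome 14. Between them, Olfm4 and Tdrd3 are the protein-coding genes whose annotated symbol occurs in the count data. A gene named differently in the counts and in the annotation would be missed, here and among the neighbours below. The members of that stretch had log2 fold changes of 0.25 for Pcdh8, 4.32 for Pcdh17, 1.20 for Pcdh20 and 4.43 for Pcdh9. Pcdh10 and Pcdh18 lie within 4.38 Mb of chromosome 3 with Pabpc4l between them. The nearest protein-coding gene matched by symbol on each side of each member, a set chosen after the values were seen, gave 15 genes outside the family list. A nearer gene under another symbol may be missing from this set. Of these 5 were higher, 0 lower and 6 no DEGs by edgeR's quasi-likelihood test, and 4 had no count. DESeq2 gave 5 higher and 0 lower among them. Over all 19891 genes tested with edgeR, 22.2% were higher and 20.6% lower, and nothing is read from the count of neighbours. Sugt1 and Slc7a11 were lower at an adjusted p-value up to 0.05 in edgeR, and missed only the minimum fold change for a DEG. Stim2 and Arap3 were higher in the same way, with log2 fold changes of 0.68 (SE 0.06) and 0.47 (SE 0.07). The 5 higher DEGs were Pcdh12, itself of the family picked for its rise, and Pabpc4l, Pabpc5, Nap1l3 and Tdrd3. Pabpc4l, which encodes a poly(A)-binding protein, had 275 and 260 raw counts in Undiff and 1103 and 1523 in Day4, a log2 fold change of 1.96 (SE 0.08) beside 5.97 for Pcdh18 and 6.85 for Pcdh10. Tdrd3, between Pcdh17 and Pcdh20, had 472 and 366 raw counts in Undiff and 2066 and 2755 in Day4, a log2 fold change of 2.19 (SE 0.07). Slc7a11, the cystine transporter gene 135 kb from Pcdh18, had a log2 fold change of −0.26 (SE 0.11), and Sugt1, 132 kb from Pcdh8, one of −0.62 (SE 0.04).

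**Figure D4:**
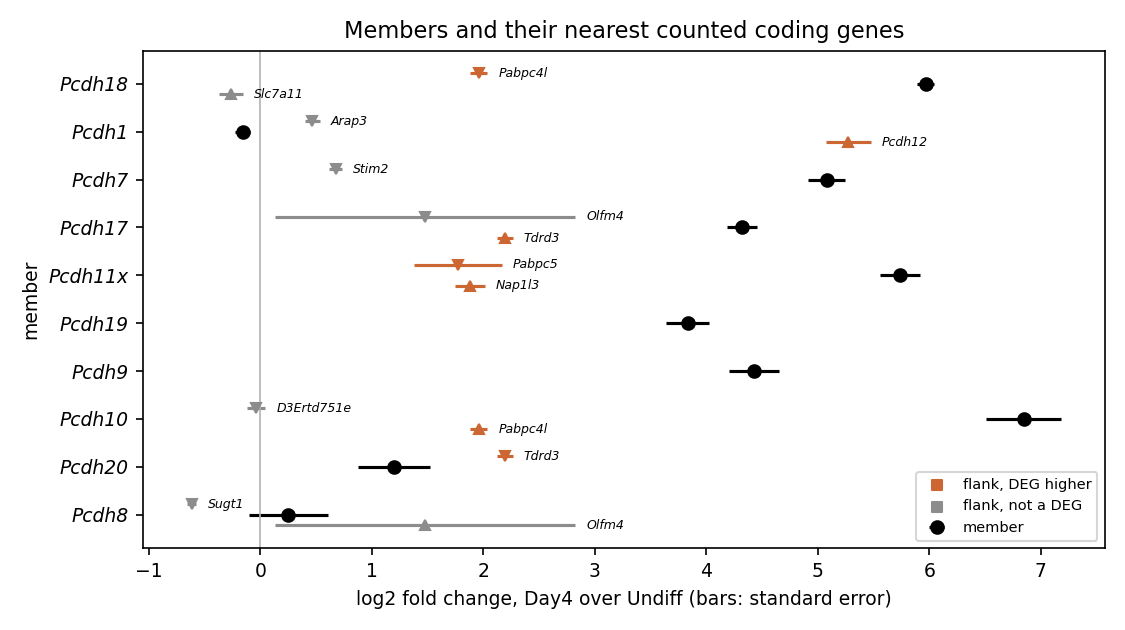
Log2 fold change, Day4 over Undiff, with its standard error, of each member (circles) and of its nearest counted protein-coding neighbours at the lower (triangles down) and the higher (triangles up) coordinate. Neighbours were matched by gene symbol, so a nearer gene named differently may be missing. Members lie at 3.83 or above except Pcdh1, Pcdh8 and Pcdh20, and no neighbour outside the protocadherins lies above 2.19.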

How the data were processed

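RNA of R1 ESCs was sequenced in 2 Undiff and 2 Day4 libraries, grouped by the sample labels. The authors trimmed reads with cutadapt, aligned them with STAR 2.4.2a to mm10 and counted uniquely mapped fragments per gene with HTSeq, and the deposited values are raw counts per gene symbol. Fragments assigned to no gene made up 7.50% to 13.2% of each library, those assigned to several genes 1.84% to 1.91%, and these summary lines were left out. Replicates were grown and treated separately and differed by more than sampling noise (chi-square per degree of freedom 5.71 in Undiff and 3.07 in Day4).

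Counts were scaled by TMM and fitted with edgeR 4.0.16 (glmQLFit and glmQLFTest, legacy = FALSE) in R 4.3.3 for 19891 genes with a count, without a replicate block, with Benjamini-Hochberg adjustment over all of them. In simulated data for this comparison, 199 of 200 changed genes were recovered. These genes were well above the floor, their changes exceeded the minimum for a DEG, and a common dispersion was used for all genes. Recovery of smaller changes or of low counts was therefore not assessed. The standard error is the log2 fold change divided by the square root of F. RPKM uses the TMM-scaled total and the union of GENCODE vM21 exons. The authors counted on a UCSC annotation of mm10, so the exons counted and the exons measured for length may differ. Pooled ratios have exact binomial intervals. The floor of 3 counts was 0.0629 to 0.0935 CPM, and intervals and floor cover counting error only. The members and the lists were chosen with earlier results of these data known. Named are the members, the 2 highest and the 2 lowest DEGs of each list with a mean of at least 1 CPM, known partners, Pcdh12 and Pcdh15, and the 2 genes nearest in pattern to each of the 3 members of highest level. Neighbours were added later. Alternatives were DESeq2 1.42.0 and its size factors, library totals, filterByExpr, a replicate block, thinning to the smallest total, each library left out, no minimum fold change, another gene length and older edgeR settings.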

Additional observations from a re-analysis of the deposited data

How the results depend on the processing

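The median log2 fold change of the members lay between 4.26 and 4.49 under the alternatives run. The number of members with both Day4 libraries above both Undiff libraries was 9 with other scalings and 8 after thinning, where Pcdh8 overlapped. With a replicate block the median was 4.38 and Pcdh18 was at 5.97, and the block changed no count of DEGs in the lists. Libraries with the same number did not deviate together (r = -0.0182 across 15584 genes, which are not independent). With 2 replicates per state, this cannot show whether they were handled together. Without a minimum fold change, the WAVE complex had 6 genes higher, the catenins 3 lower, and the other cytoplasmic partners 4 higher and 4 lower, since this only widens the definition of a DEG. With 1 library left out, the lower partners numbered 1 to 2. With the longest transcript as the length, the share of Pcdh1 in Undiff was 84.5% and that of Pcdh18 in Day4 was 68.0%. Older edgeR settings, added after the data were seen, moved no list count by over 1.5 times. With 2 replicates per state and under 35 counts for 8 members in Undiff, folds of the low members are imprecise.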
